A study of Homo sapiens with 32 samples.

Results

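The comparison described here set MCF10A cells that lack both XRCC4 and p53 (XRCC4 p53 double knockout, DKO) against MCF10A cells that lack XRCC4 only (XRCC4 KO). Both lines received 10 Gy of ionizing radiation, were collected 3 days later and were given no ATR inhibitor (ATRi). The comparison was chosen by the libraries' labels, which give 2 libraries per group, so it rests on 4 of the 32 libraries of the series and covers all genes. MCF10A is a non-malignant human mammary epithelial line, grown here with horse serum, EGF, hydrocortisone, cholera toxin and insulin. The study asked whether inflammatory signaling after irradiation, which is blunted in cells without non-homologous end joining, comes back when p53 and the checkpoint at the G2-M boundary are lost. Its second experiment also held irradiated wild-type (WT) cells, p53 KO cells, and XRCC4 KO and DKO cells given ATRi from 1 h before irradiation until collection, each with 2 libraries at 3 days after 10 Gy. Both groups compared here carry the XRCC4 knockout, so p53 is the labelled difference.

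Each knockout line was derived from 1 cell per well after lentiviral delivery of CRISPR-Cas9. No clone is named for any library, so a DKO line against an XRCC4 KO line is what is compared, and differences between 2 lines that arose apart from p53 cannot be told apart from its loss. Separate cultures are not stated for the 2 libraries of 1 group, so p-values measure only the spread between these libraries, which may be technical. In bulk RNA, fewer cells of a kind and less RNA per cell cannot be told apart.

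p53 is a transcription factor that DNA damage stabilizes. It switches on genes for cell cycle arrest, apoptosis, DNA repair and its own degradation, and through the cyclin-dependent kinase inhibitor p21 it lets the DREAM and RB repressor complexes shut down cell cycle genes. XRCC4 is the scaffold that holds DNA ligase IV in classical non-homologous end joining, the main path that rejoins broken DNA ends outside S phase. ATR is a checkpoint kinase that keeps cells with damaged or under-replicated DNA out of mitosis. Cells that divide with broken chromosomes can form micronuclei, whose DNA is sensed by the cGAS-STING pathway, which drives interferon-stimulated genes.

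The XRCC4 KO libraries held 17290502 and 16270230 estimated counts and the DKO libraries 17468683 and 16754013. The 10 most abundant genes took 6.23% and 6.28% of the counts in XRCC4 KO and 4.76% and 4.71% in DKO, and the TMM scaling factors were 0.881 and 0.876 against 1.02 and 1.03. Levels below are CPM, counts divided by TMM-scaled library size in mega-counts, always XRCC4 KO libraries 1 and 2 first and then DKO libraries 1 and 2. The log2 fold change (± standard error) is DKO relative to XRCC4 KO, and adjusted p-values are from edgeR's two-sided quasi-likelihood test with Benjamini-Hochberg adjustment over 16632 tested genes of 60332 in the table. Called means an adjusted p-value below 0.05.

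The lines carried an epithelial profile. The summed level of the basal mammary markers was 32400 to 32500 CPM in XRCC4 KO and 22600 to 23200 CPM in DKO. That of the luminal markers was 3950 to 4040 CPM against 2900 to 2920 CPM, with ELF5 at 0 in all 4 libraries. Of the 10 luminal markers tested, however, 4 rose, 5 fell and 1 did not pass. Their mean level was 5.26 and 5.32 against 5.25 and 5.16 log2 CPM. Fibroblast markers summed to 118 to 125 CPM against 84.8 to 90.0 CPM, although of the 6 tested 4 rose and 1 fell, with their mean level at 1.30 and 1.55 against 2.06 and 2.20 log2 CPM. Immune and blood markers summed to 69.3 to 70.4 CPM against 108 to 116 CPM, with the defining genes MS4A1, HBA1 and HBB at 0. Retinal pigment epithelial markers summed to 9.59 to 10.3 CPM against 6.11 to 6.40 CPM. The part of these marker shifts in the results below was not tested. The XRCC4 transcript itself was present in both lines, at 8.80 and 8.36 CPM and at 13.6 and 15.7 CPM (0.77 ± 0.13), which does not check the knockout, since small Cas9 deletions can leave a transcript in place.

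The transcriptomes of the 2 lines differed widely. Of the 16632 tested genes, 10820 were called (65.1%), 5377 higher in DKO (32.3%) and 5443 lower (32.7%). At least a 2-fold difference was reached by 3776 called genes (22.7%), 2451 of them higher (14.7%) and 1325 lower (7.97%), and the median absolute log2 fold change over all tested genes was 0.48. The 2 libraries of a group were close to each other, with a biological coefficient of variation of 0.0361, and 82.4% of genes did not overlap between the groups, so the size of a change is given beside each call. The count table put 49.7% of called genes on the higher side, whereas tests on the deposited FPKM values put 72.1% to 72.5% there, with the median of all genes moved by up to 0.28 on the log2 scale. Small changes in either direction are therefore to be read against that shift.

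Known p53 target genes were lower in DKO as a body. Of 66 genes in 4 lists of targets, ALOX5 had no count in these libraries and 65 were tested. Of these, 57 fell (32.7% of all genes did), 43 of them at least 2-fold (7.97%), 4 rose and 4 did not pass the test, with a median log2 fold change of -1.67 against 0.02 over all genes. The mean level of these targets was 6.44 and 6.43 log2 CPM in XRCC4 KO and 4.72 and 4.75 log2 CPM in DKO, next to 4.86 in both p53 KO libraries and 6.09 and 6.10 in WT. The DKO libraries lay next to the p53 KO line and apart from both groups that carry p53. In p53 KO against WT, 56 of the 65 fell and 4 rose (52.7% of all genes were called there, 25.8% higher and 26.9% lower). In both comparisons 54 fell, which is 94.7% of the 57, against 54.5% of all genes lower in DKO.

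**Figure D1:**
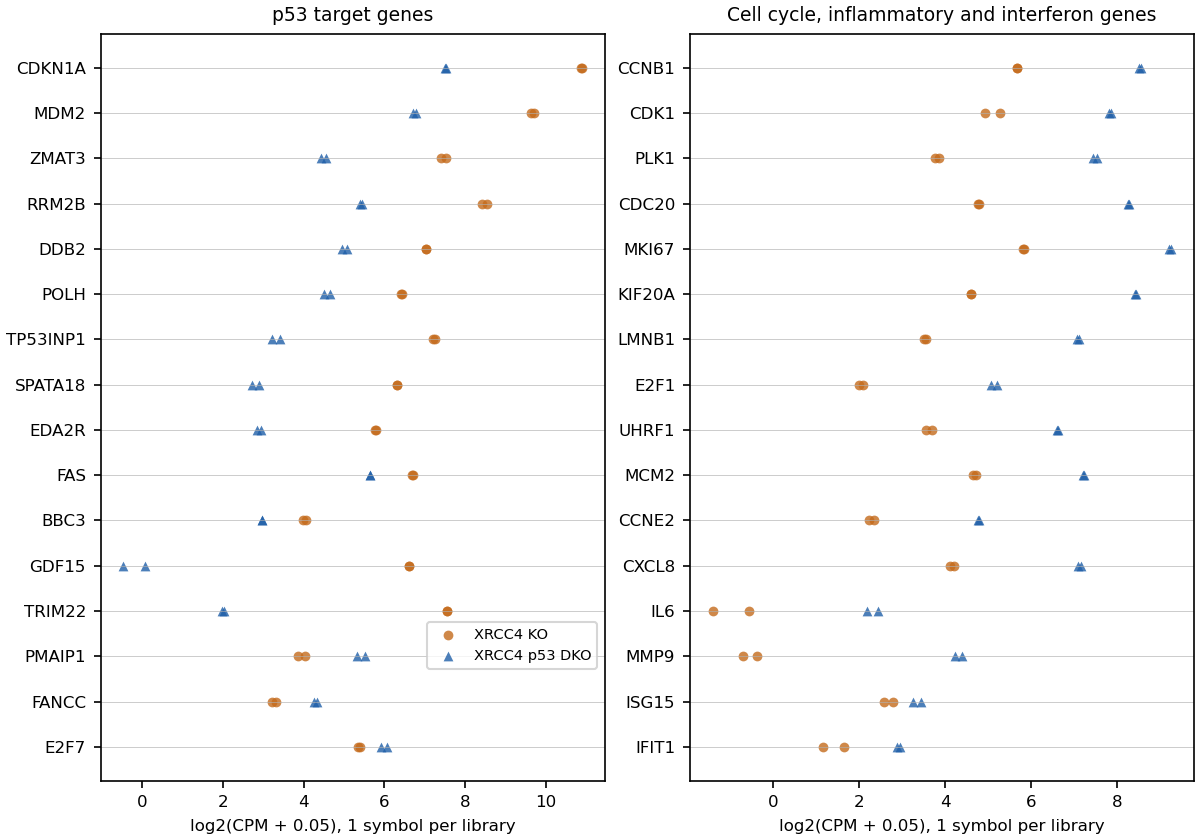
Level of single genes in each library, as log2(CPM + 0.05) on the horizontal axis, with 2 circles for the XRCC4 KO libraries and 2 triangles for the DKO libraries. CDKN1A lies at 1880 and 1900 CPM in XRCC4 KO and at 180 and 185 CPM in DKO, and the 2 libraries of a group lie closer together in abundant genes than in low ones such as IFIT1 and IL6. CXCL8 was added after its values were seen.

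Among the targets for arrest and feedback, 13 of 15 fell, 9 at least 2-fold, and 2 rose (32.7%, 7.97% and 32.3% of all genes). CDKN1A, which encodes p21 (ENSG00000124762, chr6:36644237-36655116 on hg19, as the deposited interval, which can span overlapping neighbours here and below), was at 1880 and 1900 CPM in XRCC4 KO and at 180 and 185 CPM in DKO. Both DKO libraries lay far below both XRCC4 KO libraries, and it fell by 3.37 ± 0.04 on the log2 scale (edgeR adjusted p = 1.14e-33). MDM2, the ubiquitin ligase that degrades p53 (chr12:69201956-69365350 on hg19), was at 833 and 790 CPM against 110 and 104 CPM (-2.92 ± 0.05). ZMAT3, an RNA-binding protein, was at 184 and 168 CPM against 23.3 and 21.6 CPM (-2.97 ± 0.08). The pair that rose were E2F7, an atypical E2F that p53 and E2F factors both control, at 42.3 and 40.4 CPM against 60.8 and 66.4 CPM (0.62 ± 0.06), and CCNG2, a cyclin linked to arrest, at 97.5 and 93.5 CPM against 104 and 109 CPM (0.16 ± 0.05). The call for CCNG2 was lost when the second library of either group was left out (edgeR adjusted p = 0.116 and 0.151) and without the filter on low counts (0.0584).

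Of 19 tested targets for apoptosis and death receptors, 16 fell, 1 rose and 2 did not pass, with a median of -1.62 (32.7% of all genes fell and 32.3% rose). TP53INP1, a cofactor in p53-driven cell death, was at 152 and 147 CPM against 9.24 and 10.5 CPM (-3.92 ± 0.08). SPATA18, which acts in mitochondrial quality control, fell by 3.50 ± 0.09 and the death receptor EDA2R by 2.90 ± 0.09 on the log2 scale. A pair of classic mediators changed less. BBC3, which encodes PUMA, was at 15.8 and 16.6 CPM against 7.73 and 7.74 CPM (-1.07 ± 0.11), and the death receptor FAS was at 104 and 103 CPM against 49.7 and 49.8 CPM (-1.05 ± 0.06). PMAIP1, which encodes NOXA, went the other way, from 16.4 and 14.5 CPM to 39.6 and 45.7 CPM (1.46 ± 0.09). Without genes of chromosomes 8 and 11, which lay lower across their length in DKO as described further on, 12 members of this list were left. Of these, 10 still counted as lower, as did 4841 of all 15159 genes in that fit.

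Of 7 tested targets in DNA repair, 5 fell, 1 rose and 1 did not pass (32.7% of all genes fell and 32.3% rose). RRM2B, the p53-induced small subunit of ribonucleotide reductase, was at 373 and 344 CPM against 42.1 and 43.2 CPM (-3.07 ± 0.06), DDB2, the sensor of ultraviolet damage, fell by 2.02 ± 0.06, and POLH, a translesion polymerase, by 1.84 ± 0.07. FANCC, a Fanconi anemia protein, rose from 9.26 and 9.90 CPM to 19.9 and 18.9 CPM (1.02 ± 0.11). Since RRM2B and DDB2 lie on chromosomes 8 and 11, 5 members were left without those chromosomes. Of these, 3 counted as lower, and the median went from -1.66 to -0.91.

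Of 24 tested targets in metabolism, at the membrane and secreted, 23 fell and 1 did not pass (32.7% of all genes fell). Their median was -2.00, -1.33 without genes of chromosomes 8 and 11, and -1.21 on the log2(FPKM + 1) scale (-1.09 without a filter). GDF15, a secreted stress cytokine (ENSG00000130513, chr19:18485541-18499986 on hg19), was at 98.3 and 97.8 CPM in XRCC4 KO and at 0.672 and 0.990 CPM in DKO. It fell by 6.87 ± 0.13 on the log2 scale (edgeR adjusted p = 6.7e-27), and in p53 KO against WT it fell by 3.97. TRIM22, an antiviral protein that both p53 and interferon induce (ENSG00000132274, chr11:5684787-5959849 on hg19), was at 187 and 188 CPM against 3.87 and 4.02 CPM (-5.57 ± 0.08). With ATRi the DKO libraries held 115 and 117 CPM of TRIM22, and the p53 effect there was -0.56. The table gives 16 genes this same interval, so the interval spans neighbours of TRIM22. VWCE, a secreted protein, fell by 3.54 ± 0.40.

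A p53 response element, searched as a pair of half-sites with at most 3 bases between them and no mismatch on either strand, is rare in the RefSeq promoter windows (GRCh38.p14, 250 bases before to 50 after each gene's start): 5 of 27305 windows held it (0.0183%), and none of the 54 target genes with a window did. Of the tested genes, 3 held it, and all were lower in DKO. They are shown because the element can be read directly in the 200 bases before the start, with the element in capitals.
LINC01021: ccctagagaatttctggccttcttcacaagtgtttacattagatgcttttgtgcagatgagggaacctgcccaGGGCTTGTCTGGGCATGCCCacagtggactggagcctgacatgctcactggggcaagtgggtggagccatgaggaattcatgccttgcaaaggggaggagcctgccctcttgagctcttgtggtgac
LINC01759: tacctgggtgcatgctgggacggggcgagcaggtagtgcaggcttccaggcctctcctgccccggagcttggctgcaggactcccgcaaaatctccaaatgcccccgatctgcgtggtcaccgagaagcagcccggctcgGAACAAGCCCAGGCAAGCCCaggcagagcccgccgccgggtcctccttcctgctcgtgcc
PTCHD4: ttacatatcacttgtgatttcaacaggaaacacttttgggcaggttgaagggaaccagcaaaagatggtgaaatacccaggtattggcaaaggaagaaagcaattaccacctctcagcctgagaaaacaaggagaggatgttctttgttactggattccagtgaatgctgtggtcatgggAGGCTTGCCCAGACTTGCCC
These are chr5:27472092-27472291 on the plus strand, chr1:9182004-9182203 on the plus strand and chr6:48111198-48111397 on the minus strand, and the element begins 127, 60 and 20 bases before the start. LINC01021, a long noncoding RNA also called PURPL, had 14 and 14 counts in XRCC4 KO and 0 in both DKO libraries, which is at least 11.1-fold lower with 3 counts over the group as the floor. LINC01759 had 86 and 72 counts against 15 and 20 (-2.41 ± 0.26). PTCHD4, a patched-domain membrane protein, had 172 and 184 counts against 33 and 27 (-2.82 ± 0.18). These genes were found after their values could be seen, and the match is a description, not a measured binding site.

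Genes of G2, mitosis and S phase were all higher in DKO. All 51 tested genes of the G2-M and mitosis list rose, 50 of them at least 2-fold, with log2 fold changes from 0.51 to 3.83 and a median of 3.03. The list's mean level was 4.34 and 4.29 log2 CPM in XRCC4 KO and 7.21 in both DKO libraries, above 6.81 and 6.86 log2 CPM in p53 KO and 4.82 and 4.77 in WT. All 51 genes of the G1-S and DNA replication list rose as well, 45 at least 2-fold, with log2 fold changes from 0.46 to 3.19 and a median of 1.97. All-gene shares for rising were 32.3% called and 14.7% called at 2-fold or more.

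**Figure D2:**
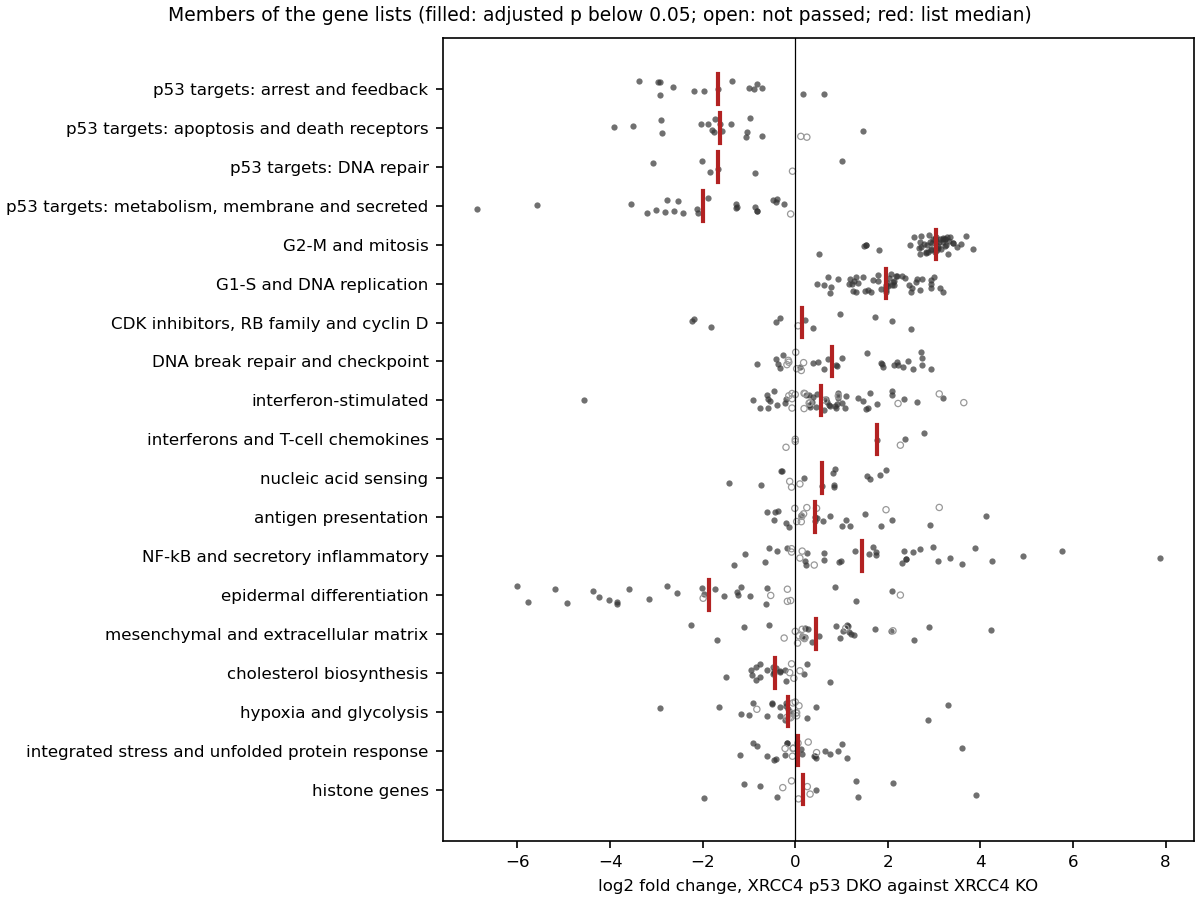
Log2 fold change of each tested gene, DKO relative to XRCC4 KO, by gene list, 1 point per gene, filled where the adjusted p-value was below 0.05, with a red bar at the list median. Genes with no count in 1 group, such as RTP4 and CXCL5, are drawn at the fitted value. The G2-M list has its median at 3.03 and no gene below 0, the 4 p53 target lists have medians from -2.00 to -1.62, and the epidermal list has its median at -1.86 with a wide spread.

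Cyclin B1, the activator of the mitotic kinase, is encoded by CCNB1, which was at 51.0 and 50.5 CPM against 375 and 365 CPM (2.87 ± 0.05). CDK1, that kinase, was at 38.6 and 30.2 CPM against 223 and 230 CPM (2.71 ± 0.07). PLK1, which drives mitotic entry and spindle assembly (chr16:23688977-23724821 on hg19), was at 14.4 and 13.5 CPM against 173 and 184 CPM (3.68 ± 0.07, edgeR adjusted p = 1.5e-29). KIF20A, a cytokinesis kinesin, was at 24.2 and 24.1 CPM against 344 and 341 CPM, the largest rise of the list (3.83 ± 0.06). LMNB1, the lamin lost in senescent cells, was at 11.6 and 11.3 CPM against 138 and 134 CPM (3.57 ± 0.07). CDC20, the activator of the anaphase-promoting complex, was at 27.4 and 26.9 CPM against 308 and 303 CPM (3.49 ± 0.05), and the proliferation marker MKI67 at 56.7 and 55.9 CPM against 605 and 592 CPM (3.41 ± 0.05). For each of these 7 genes, both DKO libraries were at least 5 times the XRCC4 KO libraries.

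Many promoters of this list hold the cell cycle homology region, which the DREAM complex and its activating counterparts read, and many hold a CCAAT box. The cell cycle homology region (CHR, searched as TTTGAA on both strands) stood in 30 of the 44 members with a RefSeq window (68.2%) and in 4212 of all 27305 windows (15.4%). The CCAAT box, on both strands, stood in 34 of the 44 (77.3%) against 35.7% of all windows, and both together, overlapping or not, in 26 (59.1%) against 6.08%. The 200 bases before the start of 3 members are shown, with CHR and CCAAT letters of either strand in capitals.
PLK1: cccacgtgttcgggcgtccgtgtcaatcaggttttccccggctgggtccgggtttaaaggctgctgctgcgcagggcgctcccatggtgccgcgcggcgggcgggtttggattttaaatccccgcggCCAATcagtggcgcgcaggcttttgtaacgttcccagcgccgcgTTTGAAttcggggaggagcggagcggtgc
CDC20: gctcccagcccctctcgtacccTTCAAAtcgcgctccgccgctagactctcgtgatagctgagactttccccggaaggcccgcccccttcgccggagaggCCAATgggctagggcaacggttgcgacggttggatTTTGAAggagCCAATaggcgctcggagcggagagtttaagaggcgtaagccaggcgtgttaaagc
CDK1: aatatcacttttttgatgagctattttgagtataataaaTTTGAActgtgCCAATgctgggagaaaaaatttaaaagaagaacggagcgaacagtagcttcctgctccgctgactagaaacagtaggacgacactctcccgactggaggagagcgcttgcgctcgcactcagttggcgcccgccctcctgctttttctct
They are chr16:23678689-23678888, chr1:43358781-43358980 and chr10:60778131-60778330, all on the plus strand of GRCh38.p14. In PLK1 the CHR letters begin 29 bases before the start and the CCAAT letters 73 bases before it. CDC20 has CHR letters at 65 bases and, reversed, at 178 bases before the start, and CDK1 has them at 161 bases. A match says nothing about which protein was bound in these cells.

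Among the replication genes, E2F1, the transcription factor that opens S phase, was at 4.20 and 3.93 CPM against 37.0 and 33.6 CPM (3.12 ± 0.11), and its relative E2F2 rose by 3.19 ± 0.18 from 1.25 and 1.55 CPM. UHRF1, which carries DNA methylation through replication, was at 11.6 and 12.9 CPM against 98.9 and 96.5 CPM (3.00 ± 0.08). MCM2, a subunit of the replicative helicase, was at 26.2 and 25.1 CPM against 149 and 146 CPM (2.52 ± 0.06). CCNE2, cyclin E2, was at 4.66 and 4.99 CPM against 27.3 and 27.1 CPM (2.50 ± 0.12). In each of these 5 genes both DKO libraries lay above both XRCC4 KO libraries, and 82.4% of all tested genes likewise had no overlap in one direction or the other.

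The E2F letters (TTTCCCGC or TTTGGCGC, both strands) stood in 21 of 44 windows of this list (47.7%) and in 631 of 27305 windows (2.31%), while CHR letters stood in 1 of the 44. CCAAT letters stood in 26 of the 44 (59.1%), against 35.7% of all windows. The windows of E2F1 (chr20:33686386-33686585, minus strand) and UHRF1 (chr19:4909301-4909500, plus strand) show both spellings, in capitals, close to the start.
E2F1: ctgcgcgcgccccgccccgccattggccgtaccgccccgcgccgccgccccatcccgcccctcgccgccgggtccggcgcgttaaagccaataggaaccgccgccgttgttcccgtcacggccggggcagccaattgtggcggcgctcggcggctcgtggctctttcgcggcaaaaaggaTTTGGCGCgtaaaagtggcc
UHRF1: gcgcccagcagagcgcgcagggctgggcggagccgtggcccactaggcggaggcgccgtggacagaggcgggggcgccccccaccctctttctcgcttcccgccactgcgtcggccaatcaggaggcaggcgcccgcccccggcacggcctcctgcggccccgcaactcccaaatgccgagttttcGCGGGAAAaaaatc
The letters begin 20 bases before the start in E2F1 and 14 bases before it, on the opposite strand, in UHRF1. Among the 54 p53 targets with a window, 5 held CHR letters and 6 held E2F letters.

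The regulators around these genes moved in both directions. Of 14 listed CDK inhibitors, RB family members and D cyclins, 12 were tested, of which 6 rose, 5 fell (3 on the FPKM values) and 1 did not pass. The list's median was 0.13, and 32.3% of all genes rose and 32.7% fell. The inhibitors CDKN2C (p18, 2.50 ± 0.15) and CDKN2D (p19, 1.73 ± 0.16) and the RB relative RBL1 (p107, 2.10 ± 0.09) rose. Cyclin D2, CCND2, was at 303 and 310 CPM against 65.8 and 69.1 CPM (-2.18 ± 0.05), and cyclin D1, CCND1, at 563 and 550 CPM against 159 and 156 CPM (-1.82 ± 0.04). CDKN1C, p57, fell by 2.23 ± 0.26 from 4.40 and 4.21 CPM, whereas in p53 KO against WT it rose by 1.86. CDKN2A and CDKN2B were at 0 or 1 counts per library and were not tested.

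Of 34 genes of DNA break repair and checkpoints, 22 rose, 15 of them at least 2-fold, 5 fell, none by 2-fold, and 7 did not pass. Over all genes, 32.3% rose, 14.7% at least 2-fold, and 32.7% fell. The list's median was 0.79, and 1.20 to 1.34 on the FPKM values. CLSPN, the adaptor through which ATR activates CHK1, was at 5.19 and 6.11 CPM against 44.8 and 41.8 CPM (2.94 ± 0.11). BLM, a helicase, rose by 2.74 ± 0.13 and EXO1, a resection nuclease, by 2.73 ± 0.08. The apical kinases were lower: ATM was at 133 and 122 CPM against 74.9 and 69.8 CPM (-0.82 ± 0.07) and ATR at 75.9 and 73.3 CPM against 58.9 and 52.3 CPM (-0.42 ± 0.06). RAD50, of the MRN end-sensing complex, was also lower (-0.38 ± 0.06). On the deposited FPKM values no member of the list was called lower, ATM was at -0.19, and RAD50 turned to 0.11.

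The effect of p53 loss was then compared between cells without and with XRCC4, as the difference between DKO against XRCC4 KO and p53 KO against WT, which share no library. By this test 7369 genes differed (44.3%), 3535 with a higher log2 fold change without XRCC4 (21.3%) and 3834 with a lower one (23.1%). The higher side held 48.0% of these calls, and 62.2% to 63.1% on the FPKM values. CDKN1A fell by 3.37 without XRCC4 and by 3.27 with it, with a difference of -0.11 ± 0.06 that did not pass the test (edgeR adjusted p = 0.155). Of the 54 p53 targets lower in both, 37 fell further without XRCC4, among them MDM2 (difference -0.51), FAS (-0.28) and GDF15 (-2.91). Over all tested genes, 2964 were lower in both and 1149 of these fell further. Chromosome-wide shifts, described further on, enter these differences. The median log2 fold change without and with XRCC4 was -0.56 and -0.03 on chromosome 11 and -0.50 and 0.03 on chromosome 8. On chromosome 7 it was -0.02 and -0.54. The part of these shifts in the differences was not tested. All 51 genes of each cell cycle list rose in both comparisons, and 47 of the G2-M genes and 32 of the G1-S genes rose further without XRCC4. Over all tested genes, 2637 rose in both and 809 of these rose further. The difference was 1.40 for PLK1, 0.85 for CCNB1, 0.63 for CDK1, 1.06 for CCNE2 and 0.66 for MCM2.

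**Figure D3:**
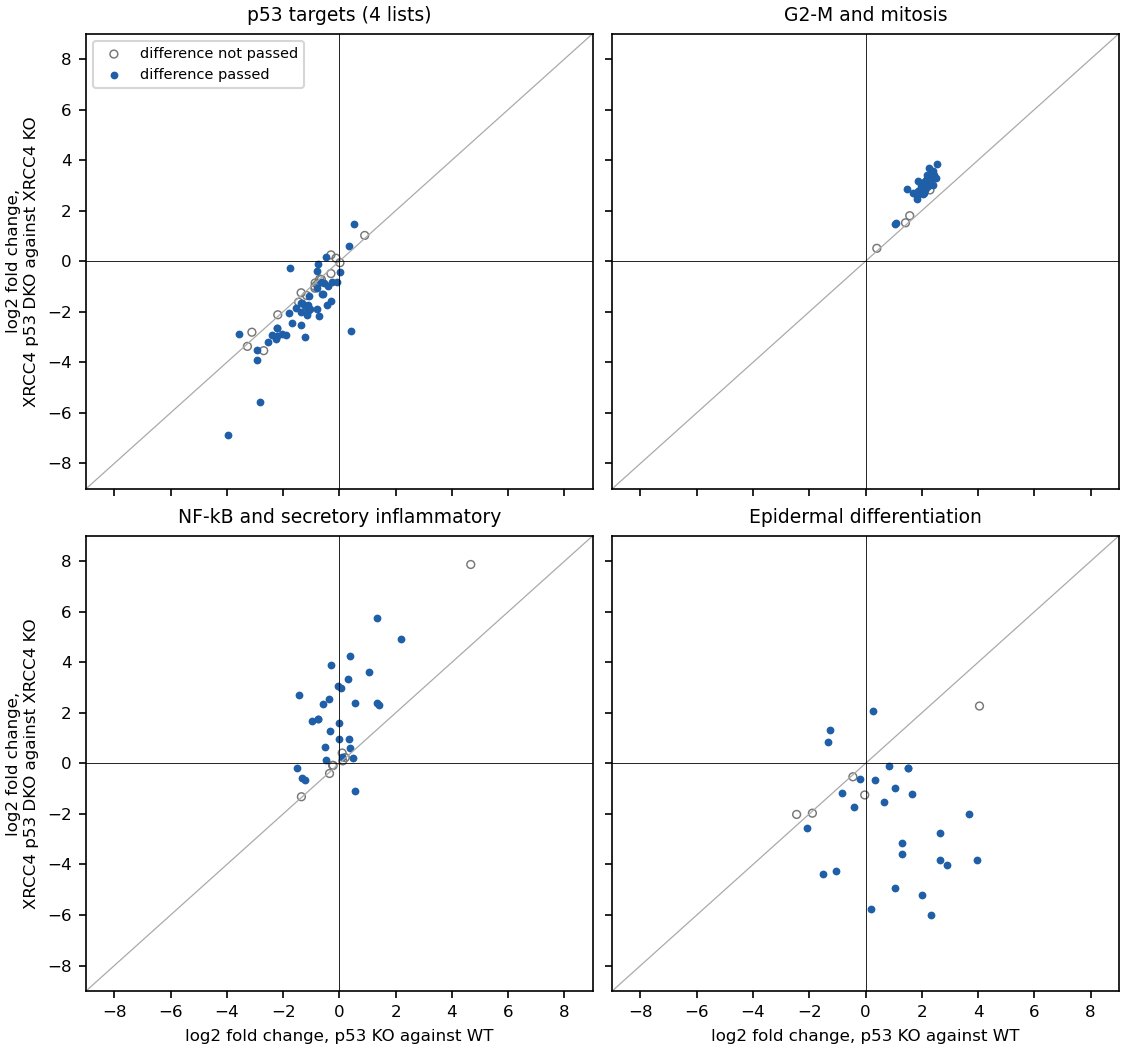
Log2 fold change of p53 loss with XRCC4 (p53 KO against WT, horizontal axis) and without XRCC4 (DKO against XRCC4 KO, vertical axis), in 4 panels with 1 point per gene, filled where the difference passed the test, and the diagonal of equal change. p53 targets lie mostly below 0 on both axes, all 51 G2-M genes above 0 on both, NF-kB genes mostly above the diagonal (28 passed) and epidermal genes mostly below it (24 passed).

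Many interferon-stimulated genes rose, mostly by small amounts and from low levels. Of 58 tested, 32 rose, 14 at least 2-fold, 11 fell and 15 did not pass, with a median of 0.55, while on the FPKM values 3 or 4 fell. Over all genes, 32.3% rose, 14.7% at least 2-fold, and 32.7% fell. Leaving out the pair at or under the floor of 3 counts and setting RTP4 at its bound gave a median of 0.46. The list's mean level was 3.25 and 3.37 log2 CPM in XRCC4 KO and 3.90 and 3.82 log2 CPM in DKO, below the 4.52 and 4.78 log2 CPM of irradiated WT cells and the 5.18 and 5.19 of p53 KO cells. In p53 KO against WT, 38 rose and 10 fell, with a median of 0.51 (25.8% and 26.9% of all genes rose and fell there). By the test of the difference, 11 had a higher log2 fold change without XRCC4 and 12 a lower one, shares near those of all genes (21.3% and 23.1%).

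ISG15, the ubiquitin-like modifier, was at 5.91 and 6.88 CPM in XRCC4 KO and at 10.7 and 9.43 CPM in DKO (0.66 ± 0.17, edgeR adjusted p = 0.00222). IFIT1, which binds foreign RNA caps, was at 2.17 and 3.09 CPM against 7.73 and 7.28 CPM (1.52 ± 0.54, edgeR adjusted p = 0.047). Its call was lost when any 1 of the 4 libraries was left out (adjusted p = 0.1 to 0.187), without the filter on low counts (0.111), and without genes of chromosomes 8 and 11 (0.0523). It passed in the other alternatives, DESeq2 and the FPKM fits included. Among called members with a mean of at least 1 CPM, the largest rises were those of IFITM1, a membrane protein that blocks viral entry, at 1.12 and 0.562 CPM against 8.80 and 6.93 CPM (3.20 ± 0.24), ISG20, an exonuclease, at 1.97 and 3.16 CPM against 17.3 and 14 CPM (2.62 ± 0.16), and OASL (2.35 ± 0.23). SLFN5 (-0.91 ± 0.05), PARP10 (-0.76 ± 0.07) and TRIM21 (-0.60 ± 0.08) fell, from 149 and 146, 53.2 and 50.6, and 28.7 and 29.9 CPM. On the FPKM values PARP10 lost its call in 1 fit and TRIM21 in all 3.

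With ATRi, DKO against XRCC4 KO gave a rise of all 58 interferon-stimulated genes, with a median of 2.89 (71.4% of all genes were called in that comparison, 35.4% higher and 36.0% lower). The difference of the 2 effects, without minus with ATRi, was called for 5751 genes (34.6%), 3544 upward (21.3%) and 2207 downward (13.3%), and for 53 of the 58, all downward. The upward side held 61.6% of all these calls, but 28.9% to 31.3% on the FPKM values. ISG15 reached 273 and 264 CPM in DKO with ATRi and IFIT1 571 and 582 CPM, and the differences were -3.47 and -3.61. The list's mean level was 6.99 and 7 log2 CPM there and 3.93 and 4.12 log2 CPM in XRCC4 KO with ATRi. All 11 genes that fell without ATRi rose with it.

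**Figure D4:**
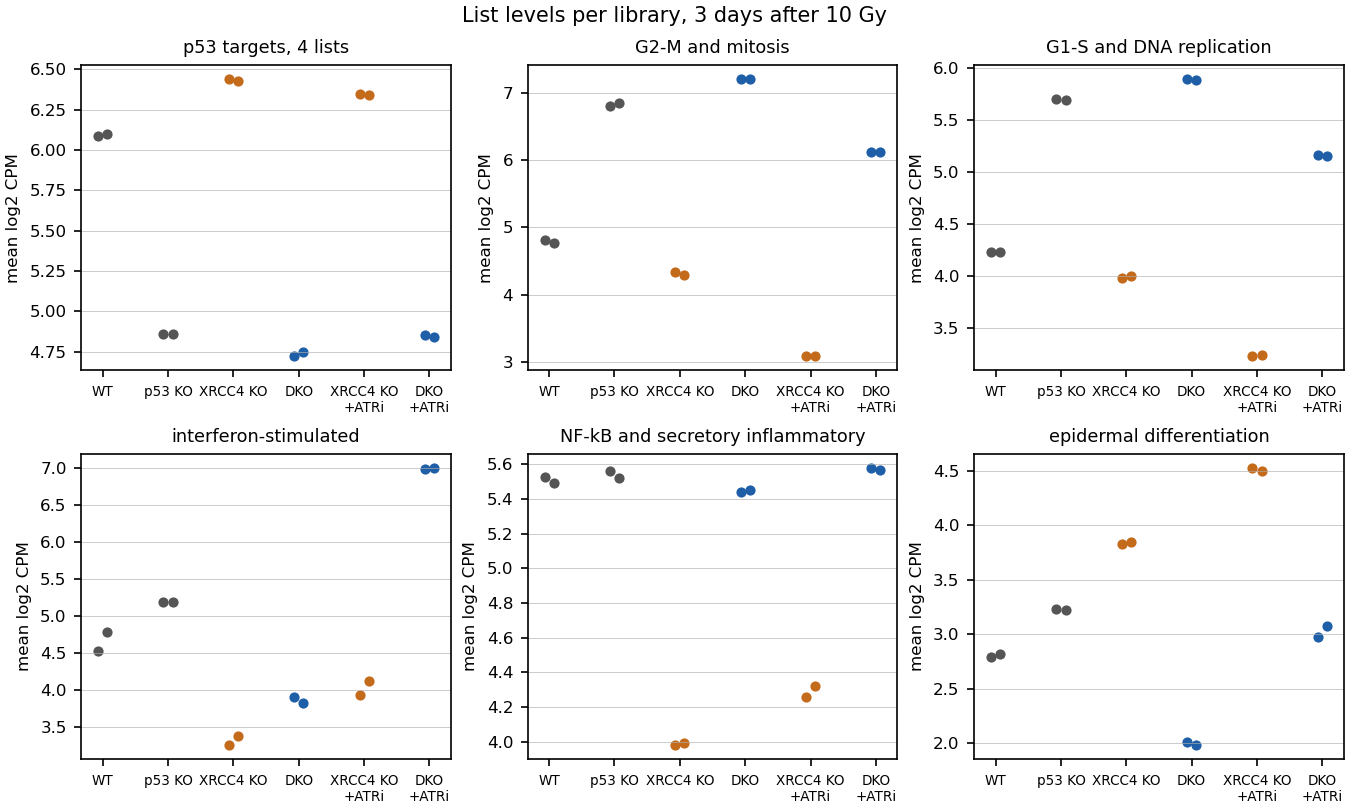
Mean level of 6 gene lists (log2 CPM averaged over the tested genes, vertical axes that do not start at 0) in each of the 12 libraries of the experiment, by group, 1 point per library. The interferon-stimulated list lies at 3.82 to 3.90 in DKO and at 6.99 to 7 in DKO with ATRi, while the NF-kB list lies at 5.44 and 5.45 in DKO and at 5.58 and 5.57 in DKO with ATRi.

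The ligands upstream stayed near the detection limit. Of 8 interferons and T-cell chemokines, 7 were tested, 3 rose and none fell, with a median of 1.77 (32.3% of all genes rose and 32.7% fell). That median rests on few counts: it was 2.37 without the 4 at or under the floor of 3 counts, 0.61 without the second DKO library, 1.21 in DESeq2, 0.87 without the filter on low counts and 0.03 to 0.44 on the FPKM values. IFNB1 and IFNL1 to IFNL3 were at 0 or 1 counts per library in both lines. CCL5, a T-cell chemokine, was at 0.197 and 0.281 CPM against 0.896 and 0.757 CPM (1.77 ± 0.51), and CXCL10 had 2 counts in XRCC4 KO and 18 in DKO, a ratio of 7.57 (exact 95% interval 1.81 to 67.2, counting error only). Of 19 genes of nucleic acid sensing, 17 were tested, of which 10 rose, 4 fell and 3 did not pass, with a median of 0.58. RNASEH2A (1.96 ± 0.08), a subunit of RNase H2, DHX58 (1.84 ± 0.31), a regulator of RNA sensing, and TREX1 (1.62 ± 0.18), a nuclease that degrades cytosolic DNA, rose. The receptor TLR3 was at 18.1 and 18.8 CPM against 6.61 and 7.10 CPM (-1.43 ± 0.11), RNASEH2C fell by 0.75 ± 0.08, and MAVS, the adaptor of RNA sensing, by 0.30 ± 0.04. On the FPKM values MAVS was not called. The DNA sensor cGAS, listed as MB21D1, and its adaptor STING, listed as TMEM173, were picked after their values were seen, and they rose by 0.84 and 0.58. STING was at 95.6 and 97.9 CPM against 147 and 143 CPM.

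Of 32 antigen presentation genes, 29 were tested, of which 14 rose, 8 at least 2-fold, 6 fell (3 on the FPKM values) and 9 did not pass, with a median of 0.43 (0.27 on log2(FPKM + 1) without a filter). Over all genes, 32.3% rose and 32.7% fell. The immunoproteasome subunit PSMB9 was at 1.05 and 0.843 CPM against 6.78 and 7.57 CPM (2.91 ± 0.20). CD274, the checkpoint ligand PD-L1, was at 1.84 and 1.90 CPM against 7.79 and 8.27 CPM (2.10 ± 0.18), and NLRC5, the activator of MHC class I genes, rose by 1.5 ± 0.15. The peptide transporter TAP1, also a p53 target, was at 105 and 105 CPM against 69.0 and 68.8 CPM (-0.61 ± 0.05), and HLA-E (-0.47 ± 0.04) and PSMB10 (-0.43 ± 0.09) were lower. With XRCC4 present, 8 of the 29 rose and 8 fell, shares near those of all genes (25.8% and 26.9%). The effect was higher without XRCC4 for 13 and lower for 1 (21.3% and 23.1% of all genes).

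Most inflammatory genes under NF-kB control rose in DKO. Of 40 listed, 38 were tested, of which 27 rose, 20 at least 2-fold, 6 fell and 5 did not pass, with a median of 1.44 (32.3% of all genes rose, 14.7% at least 2-fold, and 32.7% fell). The list's mean level was 3.98 and 3.99 log2 CPM in XRCC4 KO and 5.44 and 5.45 in DKO, near the 5.53 and 5.49 of WT and the 5.56 and 5.52 of p53 KO. In p53 KO against WT, 12 rose and 16 fell with a median of 0 (25.8% and 26.9% of all genes). The effect was higher without XRCC4 for 28 of 38 and lower for 2 (21.3% and 23.1% of all genes). With ATRi, 31 rose and 6 fell with a median of 1.24 (35.4% and 36.0% of all genes).

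IL6, a cytokine of acute inflammation, was at 0.328 and 0.632 CPM against 4.48 and 5.36 CPM (3.35 ± 0.31, edgeR adjusted p = 6.49e-11). MMP9, a gelatinase, was at 0.722 and 0.562 CPM against 18.7 and 20.9 CPM (4.92 ± 0.21), and MMP3, stromelysin, at 0.920 and 1.90 CPM against 27.6 and 25.3 CPM (4.24 ± 0.17). TNF had 1 count in XRCC4 KO and 79 in DKO, a ratio of 66.4 (exact 95% interval 11.6 to 2660, counting error only). IL1B and CXCL8 were picked after their values were seen. IL1B was at 134 and 135 CPM against 908 and 844 CPM (2.70), where p53 KO against WT gave -1.42. CXCL8, the neutrophil chemokine IL-8, was at 17.3 and 18.4 CPM against 136 and 143 CPM (2.97 ± 0.06), next to 219 and 215 CPM in WT.

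The members that fell include both an inflammatory cytokine and its antagonist. IL1A was at 626 and 623 CPM against 407 and 390 CPM (-0.65 ± 0.04) and fell further in p53 KO against WT, by 1.21. IL1RN, the interleukin-1 receptor antagonist, fell by 1.08 ± 0.12, and SAA1, an acute-phase protein, was at 989 and 1040 CPM against 406 and 409 CPM (-1.32 ± 0.04). SAA1 has near-identical copies, so its counts are uncertain.

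Most genes of epidermal differentiation, which mark keratinizing epithelium, fell in DKO. Of 36 listed, 32 were tested, of which 23 fell, 20 at least 2-fold, 3 rose and 6 did not pass, with a median of -1.86, against 32.7% of all genes called lower and 7.97% at 2-fold or more. In p53 KO against WT, 15 of them rose and 10 fell with a median of 0.74 (25.8% and 26.9% of all genes). The effect was lower without XRCC4 for 24 and higher for 3 (23.1% and 21.3% of all genes). The list's mean level was 3.83 and 3.85 log2 CPM in XRCC4 KO, above the 2.79 and 2.82 of WT, and 2.01 and 1.98 in DKO. The median depended on low values: over all fits it ran from -2.01 to -0.40, nearest 0 on the log2(FPKM + 1) scale without a filter. The summed basal markers fell alongside, and their part in this result was not tested.

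KLK5, a protease of the skin surface, was at 21.0 and 20.0 CPM against 0.280 and 0.349 CPM (-6.00 ± 0.24). CALML3, a calmodulin-like protein of stratified epithelium, was at 6.63 and 6.74 CPM against 0.112 and 0.116 CPM (-5.78 ± 0.37), and keratin 4, KRT4, at 12.5 and 10.8 CPM against 0.336 and 0.291 CPM (-5.19 ± 0.26). KLK5 and KRT4 rose by 2.33 and 2.01 in p53 KO against WT. The calcium-binding S100A8 (237 and 244 against 448 and 425 CPM) and S100A9 (427 and 441 against 1090 and 1070 CPM) rose by 0.86 ± 0.05 and 1.32 ± 0.04, and keratin 80, KRT80, by 2.09 ± 0.11. S100A8 and S100A9 fell in p53 KO against WT, by 1.34 and 1.26. Kallikrein and keratin genes have close paralogs, and reads split between copies would make their values uncertain.

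Of 35 mesenchymal and extracellular matrix genes, 32 were tested, of which 19 rose, 11 at least 2-fold, 4 fell and 9 did not pass (32.3%, 14.7% and 32.7% of all genes rose, rose at least 2-fold and fell). The median was 0.44, 0.26 without the second DKO library and 0.84 without genes of chromosomes 8 and 11. SNAI1, a repressor of epithelial genes, was at 0.328 and 0.211 CPM against 5.32 and 5.12 CPM (4.23 ± 0.33). The basement membrane collagens COL4A2, at 41.4 and 45.5 CPM against 323 and 322 CPM (2.89 ± 0.06), and COL4A1 (2.57 ± 0.08) rose. TGFB2, a growth factor, fell by 2.25 ± 0.11, ACTA2, smooth muscle actin, by 1.69 ± 0.12, and COL17A1, a hemidesmosome collagen of basal cells, by 1.11 ± 0.04 from 2630 and 2730 CPM.

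Metabolic and stress lists gave smaller shifts. Of 24 cholesterol synthesis genes, 17 fell, 1 of them at least 2-fold, 3 rose and 4 did not pass, with a median of -0.44 (32.7% of all genes fell and 32.3% rose). On the FPKM values 9 or 10 fell and the median was -0.09. TM7SF2, a sterol reductase, fell by 1.49 ± 0.14 and DHCR7, which makes cholesterol, by 0.94 ± 0.05, while INSIG1, a sterol sensor, rose by 0.75 ± 0.06. Of 30 hypoxia and glycolysis genes, 15 fell, 4 rose and 11 did not pass. EGLN3, an oxygen sensor, fell by 2.93 ± 0.17 and the glucose transporter SLC2A3 rose by 3.29 ± 0.15. Their median of -0.16 changed sign on the FPKM values, to at most 0.09, with 7 to 10 higher and 6 or 7 lower. Of 27 genes of the integrated stress and unfolded protein responses, 11 rose, 9 fell (4 on the FPKM values) and 7 did not pass, shares near those of all genes (32.3% and 32.7%). Among them were PHGDH, the first enzyme of serine synthesis, at 1.25 and 1.40 CPM against 16.2 and 16.1 CPM (3.6 ± 0.16), and the amino acid transporter SLC7A5 at 1670 and 1720 CPM against 738 and 739 CPM (-1.20 ± 0.04).

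Of 16 histone genes, 14 were tested in these poly-A libraries, of which 5 rose, 4 fell and 5 did not pass, shares near those of all genes (32.3% and 32.7%). The linker histone H1F0 was at 17.7 and 20.2 CPM against 281 and 287 CPM (3.91 ± 0.06), and the variants H2AFZ and H2AFX rose by 2.12 ± 0.04 and 1.36 ± 0.10. HIST1H2BD fell by 1.98 ± 0.10, though histone genes have near-identical copies that can share reads.

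The 10 genes with the largest fold changes in each direction, and the 5 with the smallest p-values, complete the account. Among those higher in DKO, NCAM1, a neural cell adhesion molecule (chr11:112830002-113149158 on hg19), had no count in XRCC4 KO and stood at 3.81 and 3.78 CPM in DKO, at least 37.3-fold higher. MCPH1-AS1 had no count against 3.19 and 2.74 CPM (at least 29.2-fold), and as an antisense gene its reads cannot be told apart from those of its partner without strand. LCP1, the actin-bundling protein L-plastin of blood cells (ENSG00000136167, chr13:46700055-46786006 on hg19), was at 1.25 and 1.55 CPM against 261 and 255 CPM (7.53 ± 0.09). TSPAN18, a tetraspanin, was at 0.525 and 0.421 CPM against 52.6 and 48.0 CPM (6.70), and IL24, a cytokine, at 1.51 and 1.83 CPM against 109 and 108 CPM (6.02). NES (6.47), DHRS2 (6.17) and ESM1 (5.98) also belong to the 10 largest rises, with NTNG1 (1 count against 111, a ratio of 93.3, exact 95% interval 16.4 to 3720) and CPT1C (1 against 89, 74.8, 13.1 to 2990). By its p-value AKAP12, a scaffold for protein kinase A, also stood out, at 6.04 and 5.76 CPM against 177 and 183 CPM (4.93).

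Among those lower in DKO, MUC16, the mucin that carries CA125 (chr19:8959520-9092018 on hg19), was at 13.7 and 14 CPM against 0 and 0.0582 CPM, 408 counts against 1 (ratio 485, exact 95% interval 86.6 to 19200). CARD18, a caspase inhibitor, was at least 25.4-fold lower. CYP4F3, a fatty acid hydroxylase, was at 46.1 and 45.9 CPM against 0.336 and 0.349 CPM (-7.04). Its paralogs CYP4F29P (-6.78) and CYP4F2 (116 counts against 1, ratio 138, 24.3 to 5500) were lower too, though these paralogs can share reads. SPINK6, an inhibitor of kallikreins, was at 40.0 and 43.9 CPM against 0.504 and 0.233 CPM (-6.79), A2ML1, a protease inhibitor of the epidermis, at 66.1 and 71.4 CPM against 0.952 and 0.466 CPM (-6.57), and IGFL2 at 23.6 and 22.7 CPM against 0.280 and 0.233 CPM (-6.45). KANK3 had 124 counts against 1 (ratio 148, 26.0 to 5870). INPP5D, the lipid phosphatase SHIP1, was at 316 and 311 CPM against 8.74 and 7.33 CPM (-5.28), the sulfatase SULF2 at 236 and 236 CPM against 8.96 and 9.90 CPM (-4.64), and keratin 15, KRT15, at 421 and 426 CPM against 48.6 and 43.3 CPM (-3.20).

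Position along the genome also separated the 2 lines. Among genes with at least 5 CPM on average, the median log2 fold change was -0.56 over 636 genes of chromosome 11, 83.2% of them below 0, and -0.50 over 392 genes of chromosome 8, 83.4% of them below 0. The other chromosomes had medians from -0.18 to 0.07. Of 1473 tested genes of chromosomes 8 and 11, 866 were called lower (58.8%) and 251 higher (17.0%), against 30.2% lower and 33.8% higher of 15159 elsewhere. Relative to WT and to the median of all genes, chromosome 11 stood at 0.45 and 0.44 log2 in the XRCC4 KO libraries and at -0.04 in both DKO libraries, and chromosome 8 at 0.42 and 0.43 against 0.01 and 0. Chromosome 19 was raised in both lines (0.41 and 0.43, 0.34 and 0.37), as was chromosome 13 (0.56 and 0.52, 0.63 and 0.64). Of the genes named as lower, TRIM22, VWCE, CCND1, CDKN1C, ATM, RNASEH2C, SAA1, DDB2, TRIM21, DHCR7, TM7SF2 and CARD18 lie on chromosome 11, and TP53INP1, RRM2B and PARP10 on chromosome 8. The log2 fold changes nearest the medians of these chromosomes were -0.60 for TRIM21, -0.75 for RNASEH2C, -0.76 for PARP10, -0.82 for ATM and -0.94 for DHCR7. The part of this chromosome-wide shift in their decreases was not tested. Without the genes of both chromosomes, 9665 of 15159 genes were called.

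**Figure D5:**
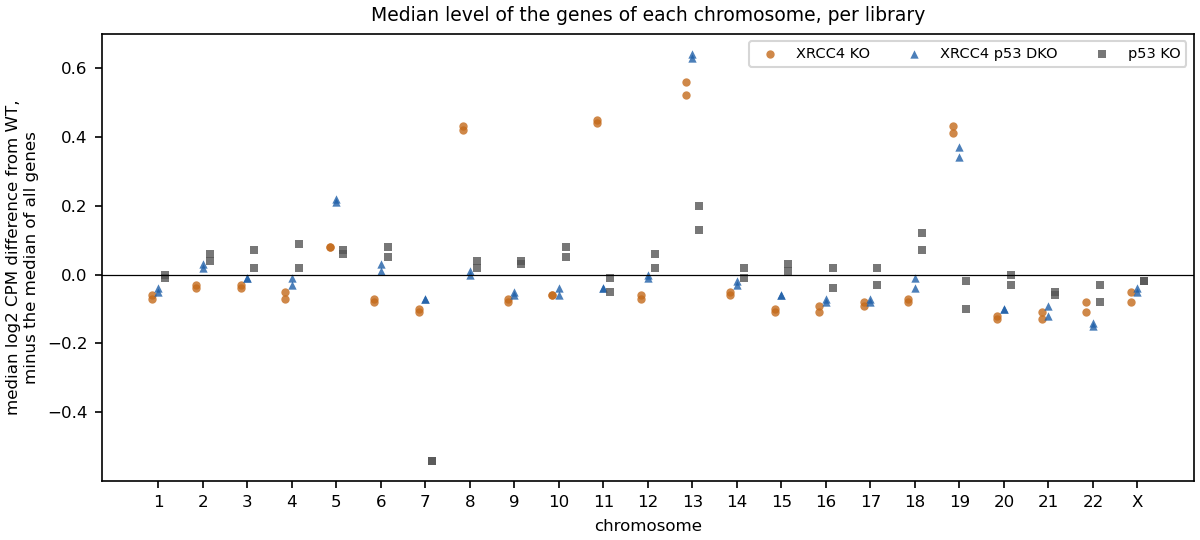
Median log2 CPM difference from WT of each chromosome's genes, minus the median of all genes, 1 symbol per library for XRCC4 KO (circles), DKO (triangles) and p53 KO (squares), over genes with at least 5 CPM on average. Chromosomes 8 and 11 lie at 0.42 to 0.45 in the XRCC4 KO libraries and between -0.04 and 0.01 in the DKO libraries, while chromosomes 13 and 19 are raised in both, and the p53 KO libraries lie at -0.54 on chromosome 7.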

How the data were processed

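Poly-A RNA of irradiated MCF10A lines was sequenced, and estimated counts per gene and FPKM values were deposited. The estimated counts are deposited per gene and library on hg19, and 96.0% to 96.9% of the values were whole; they were rounded. The FPKM values are also deposited, scaled by the authors. Tools listed in the submitters' processing notes are STAR, Cuffnorm, DESeq2, FastQC and bcl2fastq, with neither roles nor versions, and annotation, strand and multi-mapping are not given in the sources used here. Starts of deposited intervals count from 0 (26266 of 56090 lengths equalled those of a GENCODE gene on GRCh38 on that reading, 327 on the other), so 1 was added.

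In R 4.3.3, edgeR 4.0.16 fitted the 12 libraries of the second experiment (14242045 to 18586016 counts) with group as the only term, TMM scaling, filterByExpr and robust quasi-likelihood, two-sided, with 6 residual degrees of freedom. Difference tests are contrasts in that fit. With 2 libraries per group an exact permutation test cannot reach 0.05. Counts per group differed by more than sampling noise (chi-square per gene 1.71 in XRCC4 KO and 1.55 in DKO), and both libraries were kept. Technical spread can also give such values, so they do not show separate cultures. Alternatives were other scaling, filters, DESeq2 1.42.0, limma 3.58.1 on log2(FPKM + 1 or 0.1), a replicate block, left-out libraries and genes of chromosomes 8 and 11 left out, the last added after seeing the data. Tested on simulated data for DKO against XRCC4 KO over 16632 genes, the fit recovered 58.2%, 80.6% and 84.8% of genes changed by 0.5, 1 and 2 log2, with 6 false calls of 155. Only 67, 67 and 66 genes were changed by these amounts, as many up as down, against 10820 called in the data. The simulation therefore does not test the scaling where most genes change.

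The members and lists were chosen with earlier results of these data known. Genes are named as 16 anchors, up to 3 called members per direction of each list with the largest change and a mean of at least 1 CPM, the 10 largest and 5 smallest-p changes per direction, and the 5 largest differences per direction of each difference test. Promoter windows matched 11808 of 16632 tested genes (71.0%), so motif shares over called genes are not given. The level of 1 targeted gene is not reported here.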

Additional observations from a re-analysis of the deposited data

Results flagged for a closer look

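The results below were picked out because the effect of p53 loss differed between 2 settings by a test of the difference itself (edgeR's quasi-likelihood test, Benjamini-Hochberg adjustment over 16632 genes). Differences are log2 fold changes, without XRCC4 minus with XRCC4, or without ATRi minus with ATRi.

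Between cells without and with XRCC4, 7369 genes differed. Among p53 targets the difference was -0.51 for MDM2, -0.28 for FAS and -2.91 for GDF15, which was at 266 and 265 CPM in WT and 18.6 and 15 CPM in p53 KO. Among cell cycle genes it was 0.85 for CCNB1, 0.63 for CDK1, 1.40 for PLK1, 1.06 for CCNE2 and 0.66 for MCM2. IL1A differed by 0.56 and IL6 by 3.03, with IL6 at 3.74 and 2.69 CPM in WT and 3.47 and 4.53 CPM in p53 KO.

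The largest upward differences were those of NCAM1 (8.86), MCPH1-AS1 (8.5), PRSS3 (8.36), C6orf223 (7.40) and TSPAN18 (6.63). NCAM1 was at 1.80 and 2.17 CPM in WT and 2.31 and 2.04 CPM in p53 KO, and TSPAN18 at 22.1 and 23.4 CPM against 24.6 and 23.2 CPM. In this second experiment both were thus present in WT and in p53 KO and lowest in XRCC4 KO. PRSS3 and C6orf223 were near 0 in p53 KO and at 8.24 and 7.80 CPM and at 5.49 and 5.88 CPM in DKO. The largest downward differences were those of MUC16 (-8.80), KLK5 (-8.33), KLK7 (-7.78), A2ML1 (-7.48) and SULT2B1 (-7.34). MUC16 was at 32.4 and 34.2 CPM in WT and 35.5 and 41.7 CPM in p53 KO. Several of these genes had 0 or few counts in 1 group, where the fitted size depends on the prior count and is no bound.

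Between cells without and with ATRi, 5751 genes differed. The difference was -0.52 for CDKN1A, -1.33 for BBC3 and -1.76 for GDF15, 0.60 for CCNB1, -0.53 for CDK1 and -0.85 for CCNE2. Interferon-stimulated and inflammatory genes differed by -3.61 (IFIT1), -3.47 (ISG15), -2.48 (CCL5), -1.64 (IL6) and 0.44 (IL1A). The largest upward differences were 3.98 for MCPH1-AS1, 3.63 for TNF, 3.48 for IL33, 3.39 for ANXA10 and 3.32 for IGFN1, all under 4 CPM in both DKO and XRCC4 KO. The largest downward ones were -5.51 for LGALS9, -5.01 for TRIM22, -4.78 for KRT13, -4.58 for KANK3 and -4.40 for MUC16. LGALS9, which encodes galectin-9, was at 0.952 and 0.757 CPM in DKO and at 23.9 and 24.6 CPM in DKO with ATRi, and KRT13 at 1.51 and 0.873 CPM against 29.1 and 29.3 CPM.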

How the results depend on the processing

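Of 2061 values of 139 named genes over all alternatives, 2003 kept their direction and their side of the threshold, 55 lost the call and 3 turned direction, all 3 of them RAD50 on FPKM values (0.11, against -0.38 in the counts). The cause was not tested. ATM, ATR, TRIM21, MAVS and LGALS9 lost their calls in all 3 FPKM fits. The 10820 called genes became 10829 with RLE size factors, 10891 without a filter, 10440 at 1 CPM in 2 libraries, 8723 in DESeq2, 8632, 8810 and 7580 in limma on log2(FPKM + 1), log2(FPKM + 0.1) and log2(FPKM + 1) without a filter, and 11057 in a fit of the 4 libraries alone. On those 3 FPKM scales the genes lower were 2407, 2423 and 2096 against 5443, with the median of all genes at 0.20, 0.28 and 0.04 log2. Calling only changes of at least 2-fold left 3776 genes, 2451 higher and 1325 lower. The difference with and without XRCC4 gave 4171, 4193 and 2987 genes on the FPKM scales, 1559, 1546 and 1130 of them lower and, on the last, 1857 higher, against 7369. The difference without and with ATRi gave 3663 genes in DESeq2 (2312 higher, 1351 lower) and 2746, 2285 and 1989 on the FPKM scales (802, 715 and 574 higher, 1415 lower on the last), against 5751. With a replicate block the 3 counts were 10772, 7328 and 5785, and 10727 of the first were shared, although same-numbered libraries share only a number (r = -0.04 between DKO and XRCC4 KO over 12375 genes, and from -0.10 to 0.21 over all pairs of groups). Leaving out 1 library gave 9699 to 9842, 6532 to 7149 and 4859 to 5419 genes, where the lone library is assumed to vary like the others. Of 570 counts over lists, 59 moved by over 1.5 times, mostly on FPKM values or by the 2-fold rule. The list of interferons and T-cell chemokines rests on few counts, and its median went from 1.77 to between 0.03 and 2.28 over the alternatives.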

Other observations

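The first experiment of the series held irradiated WT and XRCC4 KO cells at 5 days. Its WT libraries are labelled DMSO and its XRCC4 KO labels name no DMSO, so these groups may differ in more than genotype. CPM is taken here over each library's total count. That experiment gives the level of the genes with the largest changes in other cells without XRCC4. The labels do not say these cells to be the same line. SPINK6 was at 215 and 218 CPM in XRCC4 KO and at 37.0 and 26.3 CPM in WT, IGFL2 at 99.1 and 94.7 CPM against 12.5 and 8.30 CPM, and A2ML1 at 376 and 331 CPM against 130 and 17.9 CPM. All 3 were nearly absent from DKO at 3 days. TSPAN18 was at 0 and 0.0877 CPM in XRCC4 KO and at 3.75 and 4.06 CPM in WT, and GDF15 at 38.4 and 40.9 CPM against 156 and 89.7 CPM. NCAM1 was low in both, at 0.0787 and 0 CPM in XRCC4 KO and 0.204 and 0.246 CPM in WT. In WT labelled DMSO at 3 days it was at 0.0644 and 0 CPM. MUC16 differed between the WT libraries themselves, at 776 and 143 CPM, with XRCC4 KO at 116 and 124 CPM.

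Chromosome-wide shifts were seen there as well. Values are relative to WT labelled DMSO at 5 days and to the median of all genes (log2 of CPM + 0.5). In the 2 XRCC4 KO libraries, chromosome 11 stood at 0.36 and 0.39 and chromosome 8 at 0.35 and 0.34. Chromosome 13 stood at 0.39 and 0.36 and chromosome 19 at 0.32 and 0.30. Chromosome 7 stood at 0.33 and 0.31 there but at -0.11 and -0.10 in the XRCC4 KO libraries of the second experiment at 3 days, where the p53 KO libraries were at -0.54. No test was made of these medians, and genes of a chromosome are not replicates.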
